A study of Mus musculus with 12 samples.

Results

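The proteins of the cytosolic ribosome were followed through their mRNAs in orthotopic xenograft tumors, grown in mice from human cells of pancreatic ductal adenocarcinoma. The members were 53 genes named RPL or RPS, chosen by their Ensembl identifiers: 28 of the large and 25 of the small ribosomal subunit, of 30832 genes measured in the series. All 53 were present in both deposited tables, so 0 identifiers were absent. A symbol was available for 50 of them, and the 3 others, all of the small subunit, are given by their identifiers ENSG00000083845, ENSG00000142937 and ENSG00000142534. The 12 libraries came from 4 groups: AsPC-1 tumors with arsenic trioxide (ATO) and AsPC-1 control tumors, then BxPC-3 tumors with ATO and BxPC-3 control tumors, with 3 libraries each. AsPC-1 and BxPC-3 are established human pancreatic cancer lines, and ATO is an arsenic compound used against acute promyelocytic leukemia. The genotype of all samples is given as wild type and the material as tumor tissue. The dose and schedule of ATO, the treatment of the control animals and the age and strain of the mice were given in none of the sources used. Each line is a single line, so differences between AsPC-1 and BxPC-3 describe these lines and no wider class of tumors.

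Each cytosolic ribosome holds a large subunit, which forms peptide bonds, and a small subunit, which reads the mRNA. Each ribosomal protein is normally present in a single copy per ribosome, except for the acidic stalk proteins RPLP1 and RPLP2, which are present as dimers. The mRNAs of nearly all ribosomal proteins start with a terminal oligopyrimidine tract, a sequence that places their translation, and in part their stability, under the control of the mTOR kinase. Ribosomal protein mRNAs are among the most abundant mRNAs of growing cells, and tumor cells depend on high ribosome production. Free ribosomal proteins also act outside the ribosome, best known from RPL5 and RPL11, which bind the ubiquitin ligase MDM2 when ribosome assembly is disturbed.

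Values are rescaled FPKM, that is reads of a gene per kilobase of its length, scaled so that the recovered reads of all genes outside mitochondrial DNA sum to 1000000 in each library. The rescaling was made because genes of mitochondrial DNA held 31.7%, 35.2% and 33.9% of all reads in AsPC-1 ATO libraries 1 to 3, against 15.2%, 17.2% and 20.1% in AsPC-1 control libraries 1 to 3. In BxPC-3 they held 16.2%, 10.7% and 10.05% in the ATO libraries and 22.2% and 14.4% in control libraries 1 and 2. Recovered reads per library ran from 11237544 to 19348894, and the lowest read count of any member in any library was 344. Across 17920 genes, which are not independent replicates, the library labelled BxPC-3 control 3 correlated at r = 0.947 to 0.972 with the AsPC-1 libraries and at r = 0.701 to 0.731 with the other BxPC-3 libraries. It was left out of all groups below, and results with it are given beside those they touch. The labels name no batch, and since they do not tie replicates to separate mice, every p below reflects the library-to-library spread, which may be technical. The tumors are bulk tissue, in which fewer cells of a type and less RNA per cell cannot be told apart. Ribosomal protein genes have many near-identical pseudogenes, and how reads that match several places were counted is not given in the sources used here; thus levels of single members are uncertain to that extent.

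Levels per gene length spanned a wide range among the members. The most abundant of the large subunit, by mean over the 11 libraries, were RPL41, which encodes a very short basic peptide, at 886 rescaled FPKM, RPL13A at 614 and RPL8, a protein close to the peptidyl transferase center, at 549. Of the small subunit, RPS2, which lines the mRNA entry channel, averaged 608, RPS18 averaged 529 and ENSG00000142534 averaged 474. The lowest mean was that of RPS29, at 9.14. The lengths recovered from the deposited values were 767 to 9845 bases, so that most gene models were longer than the short mature mRNAs known for these proteins. RPS29 had the longest, so a low value per length need not mean few mRNA molecules for such a gene. RPS29 also had the fewest reads of the members in every AsPC-1 library, from 344 to 1178. In the BxPC-3 libraries used it did not, as RPS28 had fewer.

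In AsPC-1 tumors, 2 of the 3 ATO libraries had lower ribosomal protein mRNA levels than the controls across nearly the whole set, and the remaining ATO library did not. In ATO library 1, 7 of 53 members lay below all 3 control libraries and 16 above them. In ATO library 2, 46 lay below and 0 above, and in ATO library 3 the same counts were found. Over all 16656 genes tested, 19.6%, 27.4% and 24.1% lay below all controls in ATO libraries 1, 2 and 3, and 25.4%, 44.7% and 42.7% lay above them. The median member deviated from the control mean by 0.04, -0.69 and -0.57 on the log2 scale in ATO libraries 1, 2 and 3. The median over all genes deviated by 0.03, 0.16 and 0.15. The share of mitochondrial reads was lowest in ATO library 1 (31.7%), followed by library 3 (33.9%) and library 2 (35.2%), all above every control. The members' median deviations fell in the same order. Among the controls the order differed, as library 1 had the lowest mitochondrial share (15.2%) and the lowest median deviation, -0.10. Control libraries 2 and 3 had median deviations of 0.07 and 0.05. The part of the mitochondrial share in the result was not tested.

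**Figure D1:**
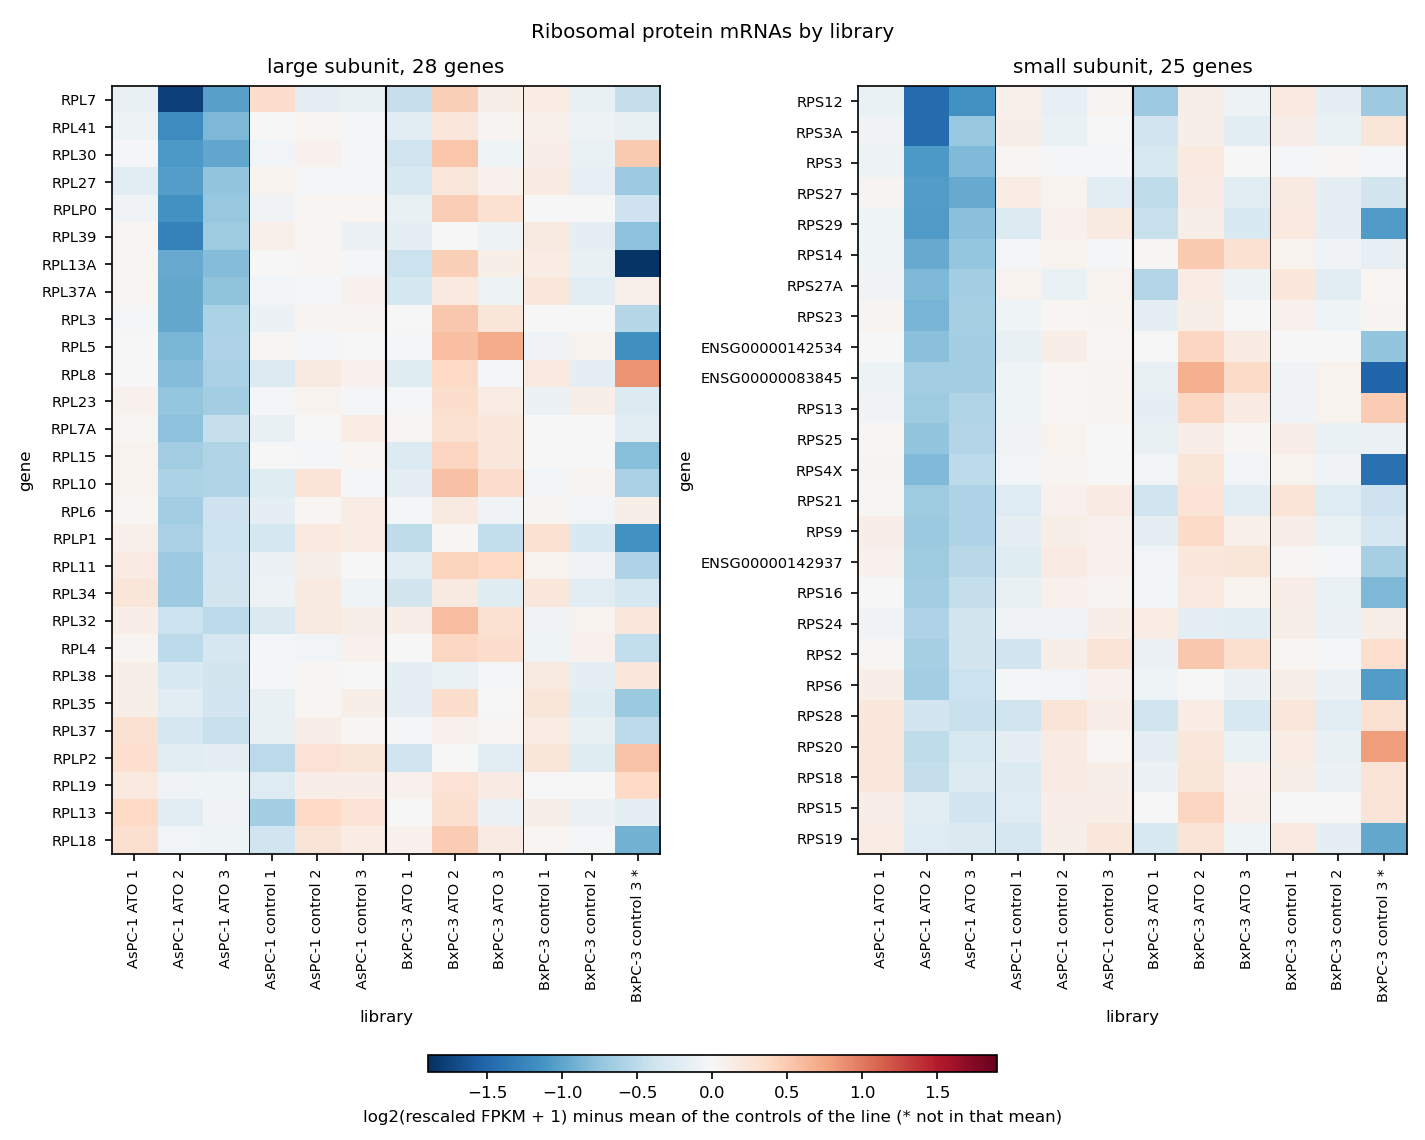
The heat map shows each ribosomal protein gene (rows, large subunit left, small subunit right) in each library (columns) as log2(rescaled FPKM + 1) minus the mean of the controls of its line; blue is lower and red is higher, and the library labelled BxPC-3 control 3 (asterisk) is not in that mean. AsPC-1 ATO libraries 2 and 3 are blue in nearly every row, with RPL7 lowest at -1.77 in library 2, and AsPC-1 ATO library 1 resembles its controls.

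The test of ATO against control in AsPC-1 called 0 of the 53 members at an adjusted p under 0.05 (limma with Benjamini-Hochberg adjustment over 16656 genes). It called 0 genes in all, 0% of those tested, and voom with limma on the recovered reads, without a replicate block, also called 0. At an unadjusted p under 0.05, 11 members were lower and 0 higher, that is 5 of 28 large and 6 of 25 small subunit genes, where 6.46% of all genes were lower and 13.1% higher. The fitted log2 fold change was below 0 for 50 members and above 0 for 3, with a median of -0.40, against a median of 0.11 over all genes. Among the 748 genes at least as abundant as the 5th percentile of the members, the median was -0.15. Without ATO library 1, 40 members were lower at an unadjusted p under 0.05, where 11.4% of all genes were, the median was -0.62, and 0 genes were called. Without ATO library 2, or without ATO library 3, 0 members reached that p, where 1.92% and 2.72% of all genes were lower, and the median was -0.25 and -0.33. Without control library 1, 2 or 3 the members at that p were 2, 2 and 1, where 3.49%, 6.51% and 4.08% of all genes were lower.

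Large and small subunit genes had similar values in AsPC-1. The median log2 fold change was -0.38 for the large subunit (25 of 28 below 0) and -0.42 for the small subunit (25 of 25 below 0), and the median standard error of a gene was 0.23 in both. The genes between the quartiles lay between -0.57 and -0.23 for the large and between -0.52 and -0.32 for the small subunit. The summed level of the large subunit over that of the small subunit was 1.23, 1.22 and 1.22 in the ATO libraries and 1.23, 1.24 and 1.205 in the control libraries. These ratios averaged 1.224 ± 0.0021 with ATO and 1.226 ± 0.018 in controls (SD, n = 3 each), so the groups overlapped and differed by less than the spread between control libraries.

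RPL27, a large subunit protein, had the smallest p of the members in AsPC-1. Its level was 114, 63.2 and 78.3 rescaled FPKM in the ATO libraries, against 138, 129 and 129 in the control libraries. The groups did not overlap, and ATO libraries 2 and 3 were the lowest. Its log2 fold change was -0.67 ± 0.22 (SE, n = 3 each), with a limma adjusted p of 0.223. RPS12, a protein of the small subunit's beak, had 341, 134 and 168 rescaled FPKM with ATO and 399, 336 and 388 in controls. Here ATO library 1 lay within the control range and the other two far below it, with a log2 fold change of -0.92 ± 0.33 (SE) and a limma adjusted p of 0.228. RPS3, a protein of the mRNA entry channel that also takes part in DNA repair, had 237, 118 and 141 with ATO and 259.7, 251 and 251 in controls. Its groups did not overlap (log2 fold change -0.68 ± 0.26, SE, limma adjusted p = 0.237). RPL7, named after its values were seen because it had the lowest fold change, had 239, 76.7 and 129 with ATO and 331, 232 and 239 in controls (-0.98 ± 0.38, SE, limma adjusted p = 0.241).

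The 3 members above 0 in AsPC-1 were RPL18, RPL13 and RPL19, all of the large subunit, and their values overlapped between the groups. RPL19, which forms part of a bridge between the subunits, had 472, 396 and 392.1 rescaled FPKM with ATO and 352, 452 and 452 in controls. RPL13 had 193, 129.6 and 141 with ATO and 94.3, 194 and 178 in controls. RPL18 had 119, 92.5 and 90.3 with ATO and 73.5, 114 and 106 in controls. In all of them control library 1 was the lowest control. Their log2 fold changes were 0.01 ± 0.18 for RPL19, 0.04 ± 0.30 for RPL13 and 0.05 ± 0.21 for RPL18 (SE, n = 3 each), each smaller than its standard error.

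Among the most abundant members, RPL41 had 926, 435 and 550.5 rescaled FPKM in AsPC-1 ATO libraries and 998, 1019 and 969 in control libraries. The groups did not overlap, although ATO library 1 was close to the controls (log2 fold change -0.72 ± 0.28, SE, limma adjusted p = 0.241). RPL13A had 346, 174 and 191 with ATO and 337, 344 and 335 in controls. RPL8 had 799, 453 and 523 with ATO and 668, 905 and 849.8 in controls. For both, ATO library 1 lay within or above the control range and the other two below it. In the small subunit, RPS2 had 734, 465 and 564 with ATO and 558, 778 and 856 in controls. RPS18, a protein of the head of that subunit, had 674, 423 and 486 with ATO and 485, 646 and 626 in controls. ENSG00000142534 had 403, 231 and 255 with ATO and 363, 437 and 406 in controls. For RPS2 and RPS18 the groups overlapped, with log2 fold changes of -0.32 ± 0.24 and -0.17 ± 0.23 (SE).

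The stalk of the large subunit, which recruits the elongation factors, is built on RPLP0 with dimers of RPLP1 and RPLP2. RPLP0 had 411, 195 and 263 rescaled FPKM in AsPC-1 ATO libraries and 414, 442 and 442 in control libraries, without overlap (log2 fold change -0.64 ± 0.27, SE, limma adjusted p = 0.25). RPLP1 had 261, 159 and 183 with ATO and 193, 276 and 269 in controls. RPLP2 had 321, 223 and 228 with ATO and 179, 309.9 and 300.4 in controls, with a log2 fold change of -0.01 ± 0.26 (SE). RPLP0 mRNA was lower in all 3 ATO libraries than in any control, though in ATO library 1 only just (411 against 414 in control library 1). The mRNAs of RPLP1 and RPLP2 overlapped with their controls, of which control library 1 was by far the lowest. Whether the stalk genes differ in their response was not tested.

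Genes with known roles in signaling or disease were mostly lowest in the same ATO libraries. RPL5 had 187, 103 and 125 rescaled FPKM in AsPC-1 ATO libraries and 192, 184 and 189.6 in control libraries (-0.49 ± 0.23, SE, limma adjusted p = 0.275). RPL11, its partner on the smallest rRNA of the large subunit, had 215, 118 and 148 with ATO and 179, 208 and 192 in controls. In both genes ATO libraries 2 and 3 lay below every control and library 1 did not. RPS6, the substrate of the S6 kinases downstream of mTOR, had 167, 96.3 and 115 with ATO and 149.9, 147 and 162 in controls. In RPS6 too, ATO library 1 was not lower than the controls. RPS19, the gene most often mutated in Diamond-Blackfan anemia, had 113, 86.1 and 84.8 with ATO and 82.1, 111 and 119 in controls. RPS27A, made as a fusion with ubiquitin, had 154, 88.1 and 102 with ATO and 169, 146 and 168 in controls. ATO and control overlapped for RPS19 and RPS27A. RPS14, whose loss is tied to a form of myelodysplastic syndrome, had 176, 94.9 and 111 with ATO and 181, 195 and 183 in controls, without overlap (-0.59 ± 0.24, SE, limma adjusted p = 0.246). RPS29, a zinc-binding protein, had 8.08, 3.58 and 4.52 with ATO and 7.04, 9.18 and 9.81 in controls. ENSG00000083845 had 48.2, 32.3 and 32.6 with ATO and 48.3, 52.7 and 53.4 in controls, the first ATO library lying just below the lowest control.

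**Figure D2:**
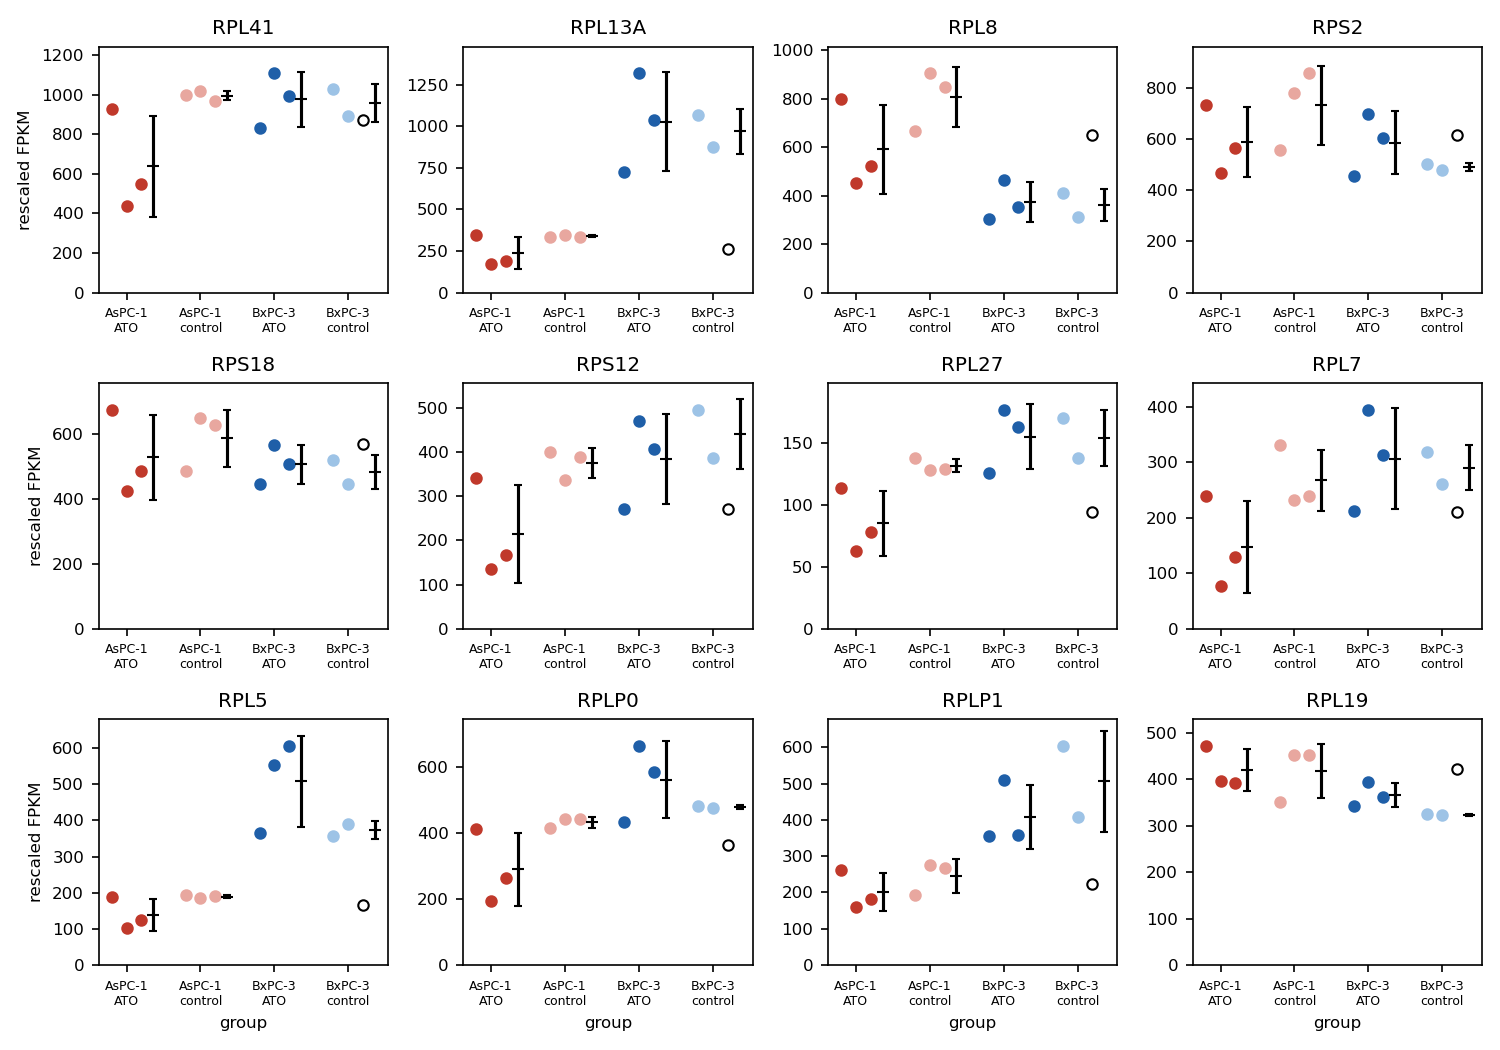
Rescaled FPKM (y axes, from 0) of 12 ribosomal protein genes in each library, with ATO left of control for each line; filled points are libraries 1 to 3 from left to right, open points are the library labelled BxPC-3 control 3, and the bars are mean ± SD without it. In AsPC-1 ATO points 2 and 3 sit below the controls for RPL41, RPS12, RPL27, RPL7, RPL5 and RPLP0, while point 1 lies near them; in BxPC-3 ATO and control points mix in most panels.

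In all, the 3 ATO libraries lay below all 3 controls for 7 members, 3 of the large and 4 of the small subunit, where 8.35% of all genes did. They lay above all controls for 0 members, where 16.5% of all genes did. The differences varied among the members in a pattern seen with opposite sign in control library 1 minus control library 2, the only controls compared in this way. Over the 53 members, ATO library 2 minus control library 2 and ATO library 3 minus control library 3 had a Pearson's r of 0.762. ATO library 1 minus control library 1 and ATO library 3 minus control library 3 had an r of 0.652, although library 1 was not lower as a whole. ATO library 1 was set against no other control here. Control library 1 departed from control libraries 2 and 3 most in RPL7 (331 against 232 and 239) and RPL13 (94.3 against 194 and 178). In these genes ATO library 1, with 239 and 193, was close to control libraries 2 and 3. Control library 1 minus control library 2, which holds no ATO library, and ATO library 2 minus control library 3 had an r of -0.639. The members share these libraries and are not independent. The log2 fold change correlated with the mean log2 level at r = -0.07 and with log10 gene length at r = 0.14 (n = 53 members).

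The share of nuclear reads held by the 53 genes was 3.57%, 2.09% and 2.41% in AsPC-1 ATO libraries 1 to 3, against 3.17%, 3.62% and 3.61% in control libraries 1 to 3. The mean was 2.69% ± 0.78 with ATO and 3.47% ± 0.26 in controls (SD, n = 3 each), a difference of -0.78 percentage points, about the size of the SD between the ATO libraries. Out of all recovered reads, mitochondrial ones included, the share was 1.79% ± 0.57 with ATO and 2.86% ± 0.16 in controls. How far the members stood below the controls depended on the scaling. With the values as deposited, 11 members were lower at an unadjusted p under 0.05 (limma), where 6.02% of all genes were. The median log2 fold change was then -0.36, against 0.12 over all genes, close to the rescaled values. With all reads scaled to the same total, 42 members were lower at an unadjusted p under 0.05 and the median log2 fold change was -0.71, while 24.2% of all genes were lower and the median of all genes moved to -0.15. With median-ratio size factors, 24 members were lower at that p, where 9.96% of all genes were, with a median of -0.56 against -0.02 over all genes. Quantile normalization gave 11 members and a median of -0.28, where 9.38% of all genes were lower.

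**Figure D3:**
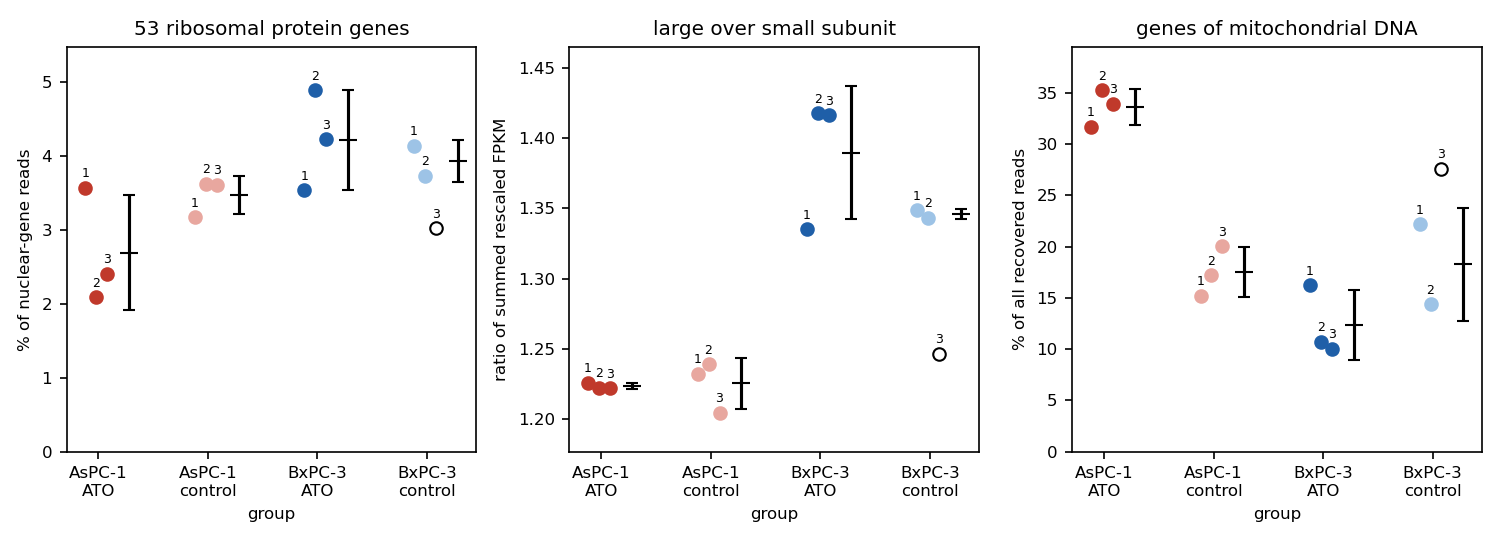
Left, share of nuclear-gene reads held by the 53 genes (%); middle, summed rescaled FPKM of the large over the small subunit (axis not from 0); right, share of all reads from genes of mitochondrial DNA (%). Numbered points are libraries, bars are mean ± SD, and the open point is the library labelled BxPC-3 control 3, not in the mean. AsPC-1 ATO libraries 2 and 3 hold the lowest shares, 2.09% and 2.41%, the subunit ratio lies between 1.205 and 1.24 in all AsPC-1 libraries, and BxPC-3 ATO libraries 2 and 3 have the highest ratio, 1.42.

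In BxPC-3 tumors the ATO libraries did not differ from the controls in one direction. In ATO library 1, 32 of 53 members lay below both controls and 6 above, where 28% and 45.5% of all genes did. In ATO library 2, 38 lay above both and 1 below, where 37.7% and 42.7% of all genes did, and in ATO library 3, 19 lay above and 10 below, where 34.2% and 44.2% of all genes did. The test called 0 members and 0 of 16507 genes (0%, limma with Benjamini-Hochberg adjustment; voom on recovered reads also called 0). At an unadjusted p under 0.05 it gave 0 members, where 2.62% of all genes were lower and 2.51% higher. The log2 fold change was above 0 for 34 members and below 0 for 19, with a median of 0.04, against -0.01 over all genes. With the library labelled BxPC-3 control 3 put back, the median was 0.16, 36 were above 0, and 0 genes were called. Leaving out 1 library at a time moved the median between -0.08 and 0.15, so its sign rested on which libraries were used. Without ATO library 1, 6 members were higher at an unadjusted p under 0.05, where 9.41% of all genes were.

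By subunit, 22 of 28 large and 12 of 25 small subunit genes were above 0 in BxPC-3, with medians of 0.05 and -0.03. The ratio of summed large to small subunit levels was 1.34, 1.42 and 1.42 in the ATO libraries and 1.35 and 1.34 in control libraries 1 and 2. The mean was 1.39 ± 0.047 with ATO (SD, n = 3) and 1.346 ± 0.0037 in controls (SD, n = 2). ATO library 1 lay below both controls and the other two above, so the groups overlapped. The difference, 0.044 with sums, was 0.19 with the median member of each subunit in their place. That ratio of medians was 1.33, 1.40 and 1.56 in the ATO libraries and 1.13 and 1.35 in control libraries 1 and 2. ATO library 1 thus lay between the controls, which were themselves far apart. With sums, the library labelled BxPC-3 control 3 had 1.25, close to the AsPC-1 libraries. The members held 3.54%, 4.89% and 4.23% of nuclear reads with ATO and 4.14% and 3.73% in controls, a difference of 0.28 percentage points that was less than the SD of 0.67 between the ATO libraries. With the lowest shares of mitochondrial reads, 10.7% and 10.05%, ATO libraries 2 and 3 were also those with the highest shares of ribosomal protein reads. The order did not hold between these libraries or among the others. Control library 1 had the highest mitochondrial share, 22.2%, against 14.4% in control library 2 and 16.2% in ATO library 1. Its ribosomal protein share, 4.14%, was nevertheless above theirs. The part of one share in the other was not tested.

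The members with the smallest p above 0 in BxPC-3 were RPL32, RPL5 and RPS14. RPL32 had 86.3, 118 and 96.2 rescaled FPKM with ATO and 74.9 and 82.8 in controls, without overlap (log2 fold change 0.33 ± 0.18, SE, n = 3 and 2, limma adjusted p = 0.883). RPL5 had 366, 553 and 607 with ATO and 356 and 391 in controls, and ATO library 1 lay within the control range (0.41 ± 0.27, SE). RPS14 had 181, 254 and 218 with ATO and 187 and 171 in controls, also with library 1 within that range. ATO libraries lay above both controls for 5 members, RPL7A, RPL18, RPL19, RPL32 and RPS15, listed here after their values were seen, where 12.1% of all genes did. They lay below both controls for 0 members, where 9.47% of all genes did.

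Lowest in BxPC-3 was RPLP1, which had 356, 509.5 and 359 rescaled FPKM with ATO and 604 and 407 in controls (log2 fold change -0.30 ± 0.27, SE). RPLP2 had 127, 165 and 142 with ATO and 194 and 141 in controls, and RPS29 had 9.15, 13.7 and 10.1 with ATO and 14.4 and 10.97 in controls. For these genes control library 1 was the highest of all 5 libraries. RPLP0, in contrast, had 435, 664 and 584 with ATO and 483 and 475 in controls. RPLP0 was below both controls in ATO library 1 and above both in ATO libraries 2 and 3, and all 3 stalk genes overlapped between the groups.

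The remaining named members overlapped between ATO and control in BxPC-3. RPL41 had 832, 1108 and 992 rescaled FPKM with ATO and 1027 and 889 in controls. RPL13A had 725, 1319.5 and 1039 with ATO and 1067 and 875 in controls. RPL8 had 304, 466 and 352 with ATO and 409 and 313 in controls. In these abundant genes of the large subunit ATO library 2 was the highest and ATO library 1 the lowest of the 5 libraries. RPS2 had 454, 697 and 604 with ATO and 501 and 479 in controls. RPS18 had 445, 565 and 508 with ATO and 518 and 444 in controls. ENSG00000142534 had 575, 758 and 641 with ATO and 568 and 578 in controls. ATO library 2 was the highest for these small subunit genes as well.

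RPL11 had 218, 337 and 327 rescaled FPKM in BxPC-3 ATO libraries and 263 and 239 in control libraries, so its ATO values lay on both sides of the controls, much as those of RPLP0. RPS12 had 271, 471 and 408 with ATO and 496 and 386 in controls. RPS3 had 157, 219.9 and 192 with ATO and 192 and 196 in controls. RPL27 had 126, 177 and 163 with ATO and 170.2 and 138 in controls. These genes, which had the smallest p in AsPC-1, were lowest in ATO library 1 here. RPS6 had a narrow range, with 294, 309 and 286 with ATO and 336 and 286 in controls. RPS19 had 151, 219 and 174 with ATO and 209 and 162 in controls. RPS27A had 83.8, 137 and 115 with ATO and 142 and 107 in controls. ATO library 1 was again the lowest for RPS19 and RPS27A. ENSG00000083845 had 108, 193 and 154 with ATO and 115 and 125 in controls, with 2 ATO libraries above both controls and 1 below.

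Whether the response to ATO differed between the lines was tested gene by gene, as the AsPC-1 log2 fold change minus the BxPC-3 log2 fold change in 1 model of the 11 libraries. No member passed: 0 of 53, and 0 of 17920 genes (0%, limma with Benjamini-Hochberg adjustment; voom on recovered reads also called 0). At an unadjusted p under 0.05, 4 members were lower in AsPC-1 relative to BxPC-3, where 4.6% of all genes were, and 0 were higher, where 10.1% of all genes were. The difference was below 0 for 52 members, with a median of -0.49 (-0.52 for the large and -0.46 for the small subunit), against 0.07 over all genes and -0.24 among the 624 genes at least as abundant as the 5th percentile of the members. RPS14 had the smallest p, with -0.86 ± 0.33 (SE, limma adjusted p = 0.294), followed by RPL5 with -0.90 ± 0.36 (adjusted p = 0.306) and ENSG00000083845 with -0.76 ± 0.32 (adjusted p = 0.32). RPL3, a large subunit protein near the catalytic center, was the 4th. RPLP2 was the member above 0, with 0.19 ± 0.36 (SE). Without AsPC-1 ATO library 1, 35 members were lower at that p, where 8.22% of all genes were, 0 were called, and the median was -0.73; without AsPC-1 ATO library 2 or 3, 0 members reached it, where 2.87% and 3.6% of all genes were lower, and the median was -0.29 and -0.42. Leaving out 1 BxPC-3 library gave between 0 members (ATO library 2 or control library 2, where 2.99% and 3.04% of all genes were lower) and 11 members (ATO library 1, where 8.3% were). With the library labelled BxPC-3 control 3 put back, 9 members were lower at that p, where 4.4% of all genes were, and the median was -0.56.

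**Figure D4:**
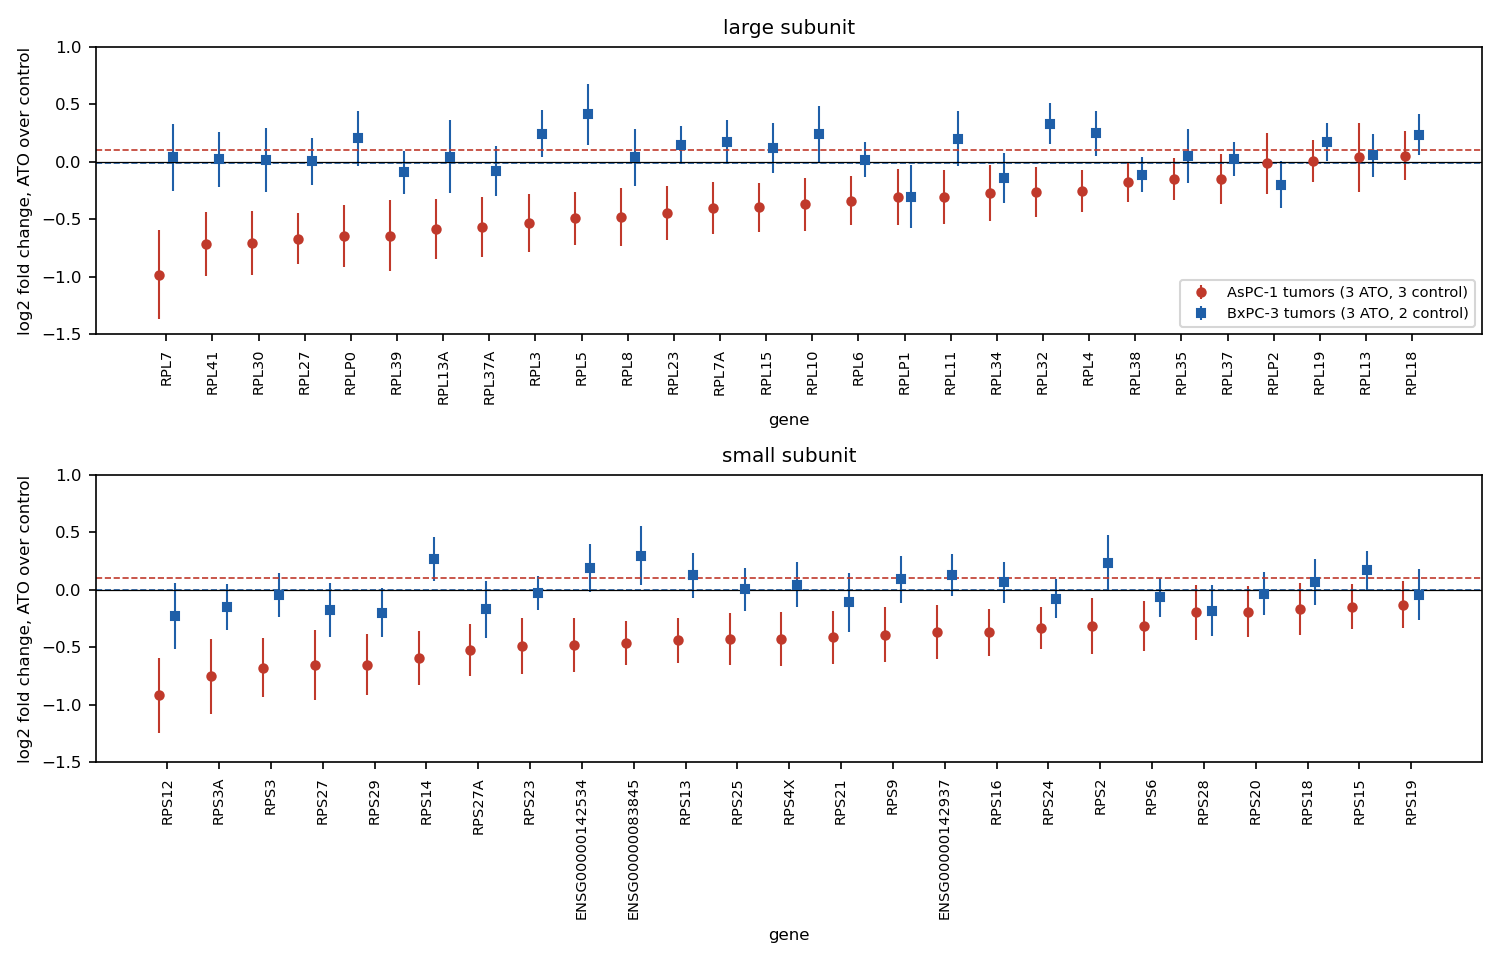
Log2 fold change of ATO over control (y axis, bars are ± SE from limma) for each ribosomal protein gene (x axis, ordered by the AsPC-1 value within each subunit), in AsPC-1 tumors (red circles) and BxPC-3 tumors (blue squares); dashed lines are the medians over all genes tested, 0.11 in AsPC-1 and -0.01 in BxPC-3. AsPC-1 values lie below 0 for 50 of 53 genes in both subunits, and BxPC-3 values scatter between -0.30 and 0.41.

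The fold changes of the members in the lines, which share no libraries, had a Pearson's r of 0.15 and a Spearman's rho of 0.15 over the 53 members. RPL7 and RPS12, the lowest of each subunit in AsPC-1, had BxPC-3 log2 fold changes of 0.04 ± 0.29 and -0.23 ± 0.29 (SE).

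Many ribosomal protein mRNAs stood at different levels in the control tumors of the lines, in shares close to those of genes in general. No test was made, as the levels came from tables deposited separately. Of 53 members, 14 were higher in all 3 AsPC-1 controls than in both BxPC-3 controls, where 28.8% of 17920 genes were, 21 were lower, where 36.7% of genes were, and 18 overlapped. Of the large subunit genes 13 were lower and 5 higher in AsPC-1, and of the small subunit genes 8 were lower and 9 higher. RPL13A, which in myeloid cells also serves in translational silencing, averaged 339 ± 4.83 rescaled FPKM in AsPC-1 controls (SD, n = 3) and 971 ± 135 in BxPC-3 controls (SD, n = 2). RPS4X averaged 202 ± 7.28 in AsPC-1 and 493 ± 34.8 in BxPC-3. RPLP1, RPS6 and RPL5 were also about 2-fold lower in AsPC-1, with ratios of 0.486, 0.492 and 0.505.

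On the other side, RPL8 averaged 807 ± 124 in AsPC-1 controls and 361 ± 67.5 in BxPC-3 controls, a ratio of 2.24. RPS20 averaged 214 ± 26.1 in AsPC-1 and 116 ± 15.3 in BxPC-3, and RPL30 averaged 74.5 ± 3.7 in AsPC-1 and 41.3 ± 5.16 in BxPC-3. RPL41 was nearly level, at 969 to 1019 in AsPC-1 controls and 889 to 1027 in BxPC-3 controls, as was RPS27, with a ratio of 1.002. The genes named for these levels were chosen after their values were seen. For 41 of the 53 members the library labelled BxPC-3 control 3 was nearer to the AsPC-1 than to the BxPC-3 control mean: it had 265 for RPL13A, 183 for RPS4X and 651 for RPL8. These members are among those that differed most between the lines. Some others without overlap between the lines were nearer to BxPC-3, such as RPS3, with 190, and RPS15, with 145. The same count over all genes was not made.

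**Figure D5:**
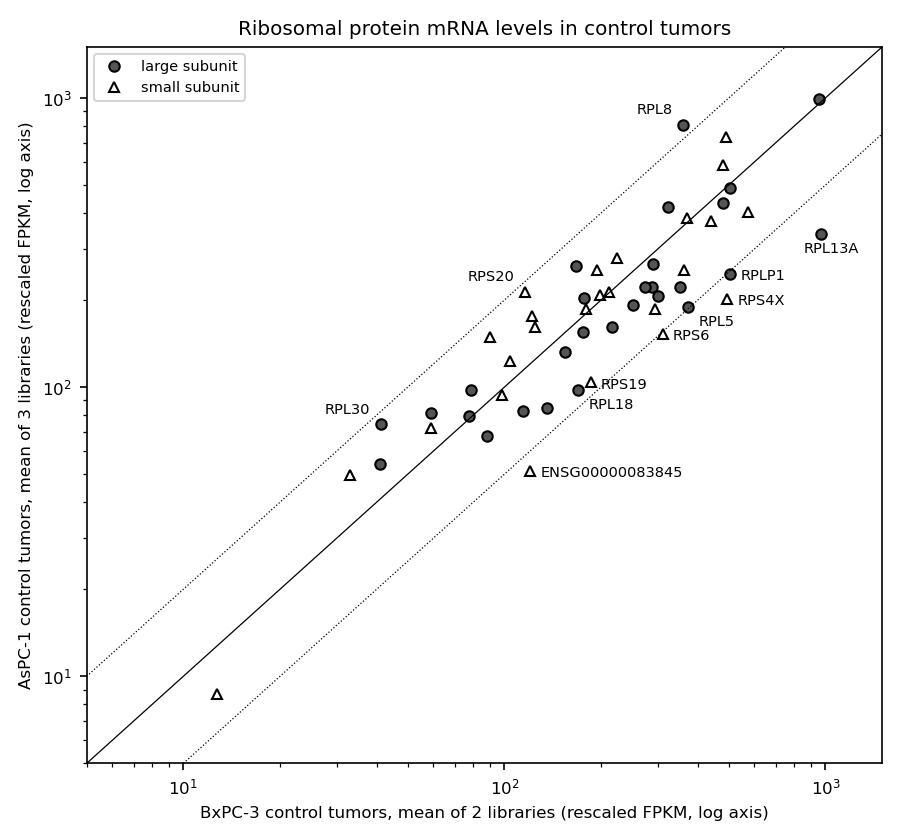
Mean rescaled FPKM of each ribosomal protein gene in control tumors, AsPC-1 (y axis, 3 libraries) against BxPC-3 (x axis, 2 libraries), both log axes; the solid line marks equal levels and the dotted lines a 2-fold difference. RPL13A, RPS4X, ENSG00000083845, RPLP1 and RPS6 lie beyond the lower dotted line and RPL8 beyond the upper one.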

How the data were processed

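RNA was sequenced from 12 tumor libraries, made per the labels' protocols with a SMARTer mRNA kit from total RNA. The labels give the mouse as organism, whereas the lines are human. The submitters' processing notes name the builds GRCm38, mm10 and hg38 with no role. No source used here gives the aligner, annotation, strand setting or treatment of mouse reads. For each line the authors deposited a table, with 26820 genes in AsPC-1 and 27457 in BxPC-3. The deposited tables state no unit, and their values were read as FPKM: whole read numbers times a constant of the library over a whole gene length, with 99.996% of values whole within 0.05 reads in each table. Gene lengths were fitted jointly over both tables, up to 130000 bases.

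Reads and lengths were recovered in Python 3.11.15 (numpy 2.4.6, pandas 2.3.3), and FPKM was rescaled so that reads outside mitochondrial DNA sum to 1000000. Of 37 mitochondrial identifiers, written by hand, 36 and 34 were in the AsPC-1 and BxPC-3 tables. Groups come from the sample titles. The test, limma 3.58.1 with eBayes and a mean-variance trend (R 4.3.3), was run on log2(rescaled FPKM + 1), which understates changes of low genes, over genes of at least 1 in 3 or more libraries. All 53 members passed this filter in every fit. Adjustment was by Benjamini-Hochberg, with a threshold of 0.05. Recovery and test were also run on simulated data. For the test, these data had noise drawn independently for each gene, so they held no joint shift of many genes in a library. Shares and ratios over members were given no test. Alternatives were other scalings, filters, pseudocounts, tests, a replicate block and leaving out libraries.

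The symbols were paired with identifiers in listed order, past the 3 identifiers without one. Members and lists were chosen with earlier results of these data known. Values in every library are given for the 3 most abundant members of each subunit, the 3 with the smallest p in each direction of each fit, the stalk proteins, RPL5, RPL11, RPS6, RPS19 and RPS27A. Exceptions in the text are RPL13, RPL18 and RPL19, given for AsPC-1 alone, and RPL32, given for BxPC-3 alone. No table at hand names human identifiers, so other gene lists, cell type markers, sequences and positions were not analysed here.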

Additional observations from a re-analysis of the deposited data

How the results depend on the processing

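Of 1248 alternative values, 1152 stayed on the same side of the threshold or within the spread. For medians that spread was the SD between library medians, 0.393 in AsPC-1 and for the line difference and 0.209 in BxPC-3. In AsPC-1 it was about as large as the median of -0.40 itself, so the 1152 say little of stability. Of the others, 85 moved, 71 of them single genes that moved by over 1 SE, and 11 passed the threshold in the alternative alone. As no gene was called in any of the 3 fits, no called value could reverse, which says nothing of stability; 66 of 1033 single-gene values changed sign. In AsPC-1, a filter of at least 5 rescaled FPKM called 69 genes, 0 of them members. At an unadjusted p under 0.05 the numbers were 3257 genes and 11 members in AsPC-1, 847 genes in BxPC-3, and 2632 genes and 4 members for the difference between lines. Leaving out 1 library at a time called 0 genes in AsPC-1, 0 to 2 in BxPC-3 (2 without ATO library 1) and 0 to 434 for the difference between lines (434 without BxPC-3 ATO library 1 and 5 without BxPC-3 control library 2), never a member. Scaling all reads to the same total moved the median difference between lines to -0.89. With the median member of each subunit in place of the sum, the subunit ratio differed between ATO and control by 0.025 in AsPC-1 and 0.19 in BxPC-3. In both lines the groups overlapped in that ratio. The cause of these moves was not tested.

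Same-numbered ATO and control libraries deviated together at r = 0.299, 0.178 and 0.0744 in AsPC-1 and at r = 0.127 and 0.0533 in BxPC-3 across genes, too little in AsPC-1 library 3 and in BxPC-3 to treat the numbers as pairs. In AsPC-1 each ATO library still correlated best with the control of its own number, a hint from the data and not from the design. The margin was large for ATO library 1 alone. ATO library 2 had r = 0.178 with control library 2 and r = 0.175 with control library 3. ATO library 3 had r = 0.0744 with control library 3 and r = 0.0048 with control library 2. With the number as a replicate block, 0 genes passed in AsPC-1, in BxPC-3 and for the difference between lines. Voom on recovered reads together with the block, added after the data were seen, called 3393 genes in AsPC-1 (20.2% of those tested). It called 35 members lower, where 2253 genes (13.4%) were called lower, and 0 members higher. RPS12 then had a log2 fold change of -1.08 (voom with limma, adjusted p = 0.00114). The voom fit without the block called 0.

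All members had at least 344 reads in each library, so counting error was small beside the spread between libraries. The limits are the 3 or 2 libraries a group, a pair of ATO libraries that carry the AsPC-1 difference, mitochondrial shares that differ between groups, unknown handling of pseudogene and mouse reads, and tables deposited separately.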
